A study of Homo sapiens with 12 samples.

Results

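Serine synthesis and amino acid transport were followed through 10 genes, chosen by name: the enzymes PHGDH, PSAT1, PSPH and SHMT2 and the transporters SLC7A5, SLC7A11, SLC3A2, SLC1A4, SLC1A5 and SLC38A2. They are 10 of the 58721 genes in the count table, and all 10 were among the 21013 genes that passed the filter on low counts. The RNA came from EW8 and TC71, cell lines derived from Ewing sarcoma, a bone and soft tissue tumour driven by the fusion oncoprotein EWS-FLI1. Both lines had been transduced with lentivirus for the Tet-On 3G transactivator, which the EF1 alpha promoter drives, and for c-Jun and c-Fos joined by a self-cleaving peptide and placed behind the TRE3G promoter. They were selected with geneticin and puromycin, and no source describes them as single clones. The groups were EW8 vehicle and TC71 vehicle, which received DMSO, and EW8 doxycycline and TC71 doxycycline, which received doxycycline at 2000 ng/ml, all for 72 h and with 3 libraries each. The labels give the genotype of the vehicle groups as WT although these cells carry the same inducible construct, and libraries from cells that received doxycycline but carry no transgene were not used here, so doxycycline itself and c-Jun with c-Fos cannot be told apart. Nothing in the labels says that the 3 libraries of a group came from separate cultures, so the p-values measure the spread between these libraries, which may be technical.

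Serine is made from the glycolytic intermediate 3-phosphoglycerate by PHGDH, PSAT1 and PSPH in turn, and SHMT2 then splits it in the mitochondrion into glycine and a one-carbon unit for nucleotide synthesis. The transporters work in part as exchangers: SLC7A5 (LAT1) and SLC7A11 (xCT) each pair with the heavy chain SLC3A2 (4F2hc, CD98) to import large neutral amino acids and cystine, SLC1A4 (ASCT1) and SLC1A5 (ASCT2) exchange small neutral amino acids including serine and glutamine, and SLC38A2 (SNAT2) takes up neutral amino acids together with sodium. Most of these genes are known targets of ATF4, the transcription factor of the integrated stress response, and several are also targets of MYC, a driver of growth in many tumours. In bulk RNA, fewer cells expressing a gene and less RNA per cell cannot be told apart.

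Promoter sequences are shown first because several of these genes moved together and because AP-1, the dimer of c-Jun and c-Fos, binds a defined motif. RefSeq (build GRCh38.p14) held 12 promoter windows, each from 250 bases before to 50 bases after an annotated start, for 7 of the 10 genes. PSPH, SHMT2 and SLC7A11 have no entry. Stretches from 150 bases before to 20 bases after the start are printed 5′ to 3′ on the gene's strand, in lower case with motif matches in capitals. These starts are RefSeq's and can differ from the ends of the spans that were counted.
PHGDH, chr1:119711784-119711953, plus strand: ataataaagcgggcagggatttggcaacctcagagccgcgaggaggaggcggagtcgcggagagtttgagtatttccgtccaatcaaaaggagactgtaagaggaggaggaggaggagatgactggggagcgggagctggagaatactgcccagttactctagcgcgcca
PSAT1, chr9:78296975-78297144, plus strand: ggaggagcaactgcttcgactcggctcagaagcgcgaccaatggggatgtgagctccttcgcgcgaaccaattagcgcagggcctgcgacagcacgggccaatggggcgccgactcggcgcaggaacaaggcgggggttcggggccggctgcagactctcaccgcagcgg
SLC7A5, chr16:87869488-87869657, minus strand: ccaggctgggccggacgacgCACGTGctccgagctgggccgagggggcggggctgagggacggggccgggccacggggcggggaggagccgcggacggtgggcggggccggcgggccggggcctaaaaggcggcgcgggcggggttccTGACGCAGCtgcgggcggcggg
SLC3A2, chr11:62881549-62881718, plus strand: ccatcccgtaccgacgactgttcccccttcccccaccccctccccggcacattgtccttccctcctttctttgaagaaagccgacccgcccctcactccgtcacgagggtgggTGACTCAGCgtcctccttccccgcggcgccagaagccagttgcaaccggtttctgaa
SLC1A4, chr2:64989249-64989418, plus strand: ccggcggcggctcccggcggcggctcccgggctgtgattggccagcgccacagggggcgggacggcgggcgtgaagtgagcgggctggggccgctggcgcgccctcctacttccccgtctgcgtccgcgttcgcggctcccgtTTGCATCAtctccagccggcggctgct
SLC1A5, chr19:46784795-46784964, minus strand: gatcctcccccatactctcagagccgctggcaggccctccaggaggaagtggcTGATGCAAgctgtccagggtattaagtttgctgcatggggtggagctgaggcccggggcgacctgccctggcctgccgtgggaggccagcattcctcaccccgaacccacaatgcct
The letters searched on both strands were TGATGNAA (core of the C/EBP-ATF response element that ATF4 binds), TGANTCA (AP-1), TGACNNNGC (core of the antioxidant response element) and CACGTG (E-box, bound by MYC), where N is any base. Over all 35116 windows of the same length, 3.62% held the first, 7.71% the second, 13.3% the third and 7.26% the fourth. The stretches of PHGDH and PSAT1 have no capitals, and their full windows, like that of SLC38A2, hold none of these letters. SLC7A5 had CACGTG starting 130 bases before the start and TGACGCAGC starting 2 bases before it. SLC3A2 had TGACTCA starting 37 bases before an internal start, where the AP-1 letters lie inside an antioxidant element core. In the same window TTACATCA, the response element core read on the opposite strand, began 38 bases after that start, beyond the printed stretch. The SLC3A2 windows at starts nearer the gene's outer end, not printed, held no match. In SLC1A4 the letters TTGCATCA, the response element core on the opposite strand, began 7 bases before an internal start. The SLC1A4 window at the gene's outer end, not printed, held no match. In SLC1A5 the element TGATGCAA began 97 bases before an internal start, a window at another internal start, not printed, held CACGTG 50 bases and GCGAGGTCA, the antioxidant core on the opposite strand, 111 bases before that start, and the window at the gene's outer end held no match. Each match is a description of letters in a window, and binding was not measured.

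The induction and the libraries were checked before the 10 genes. JUN stood at no more than 25.3 CPM (read counts scaled by the TMM-adjusted library size) in the 6 vehicle libraries and between 422 and 814 CPM in the 6 doxycycline libraries, and FOS between 11.2 and 37.6 CPM and between 999 and 1686 CPM; reads of the transgenes and of the endogenous genes fall into the same counts. Total counts ran from 42860665 to 60853649 per library, and the 10 genes had between 1628 and 51241 counts in each library. All 8 Ewing sarcoma markers examined were expressed in all 12 libraries. Of 9 markers of other cells, CD3E and HBB were at or near 0 throughout, whereas PTPRC, a leukocyte marker, stood between 59.6 and 77.4 CPM in EW8 and between 0 and 0.145 CPM in TC71. EPCAM, an epithelial marker, reached 11.3 to 12.6 CPM and PECAM1, an endothelial one, 3.23 to 4.27 CPM in the TC71 doxycycline libraries, with at most 1.19 and 0 CPM under TC71 vehicle. PECAM1 was also higher in EW8 doxycycline, at 32.7 to 40.1 CPM against 6.45 to 8.01 CPM under EW8 vehicle. Their part in the results was not tested.

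One library stood apart. In TC71 vehicle replicate 1, 2.81% of the counts came from mitochondrial genes, against 1.22% and 1.28% in replicates 2 and 3, and its line-specific genes matched its label (PTPRC was at 0). Against replicate 1, the mean of replicates 2 and 3 was higher for 9 of the 10 genes, by a median of 0.69 on the log2 scale, while the median over all 21013 tested genes was 0. PSAT1 was the most unequal of the 10, at 168 CPM in replicate 1 and 394 and 449.7 CPM in replicates 2 and 3, followed by SLC7A11 at 39.4, 98.2 and 95.7 CPM. SLC38A2 was at 436, 378 and 453 CPM and did not follow this division. Genes of the integrated stress response divided the same libraries further: CHAC1, an enzyme that degrades glutathione, was at 5.16, 28.7 and 121 CPM, and ATF4 at 457, 719 and 883 CPM. For 23 of the 24 measured genes of that list the mean of replicates 2 and 3 was higher, with a median of 0.80, against 4 of 8 Ewing sarcoma markers and a median of -0.01. PCK2, the mitochondrial PEP carboxykinase, was at 78.0 and 84.3 CPM in replicates 2 and 3, 5.39-fold above replicate 1. It belongs to the list for asparagine, proline, glutamine and branched-chain amino acids, whose median was 0.24. CHAC1 and PCK2 were chosen after their values were seen. The part of the mitochondrial share and of the stress genes in the results was not tested. For this reason the TC71 responses of the 10 genes are given with all 3 vehicle libraries, without replicate 1, and with replicate 1 as the only vehicle library, the last chosen after seeing the data and with the lone library assumed to vary like the other groups.

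**Figure D1:**
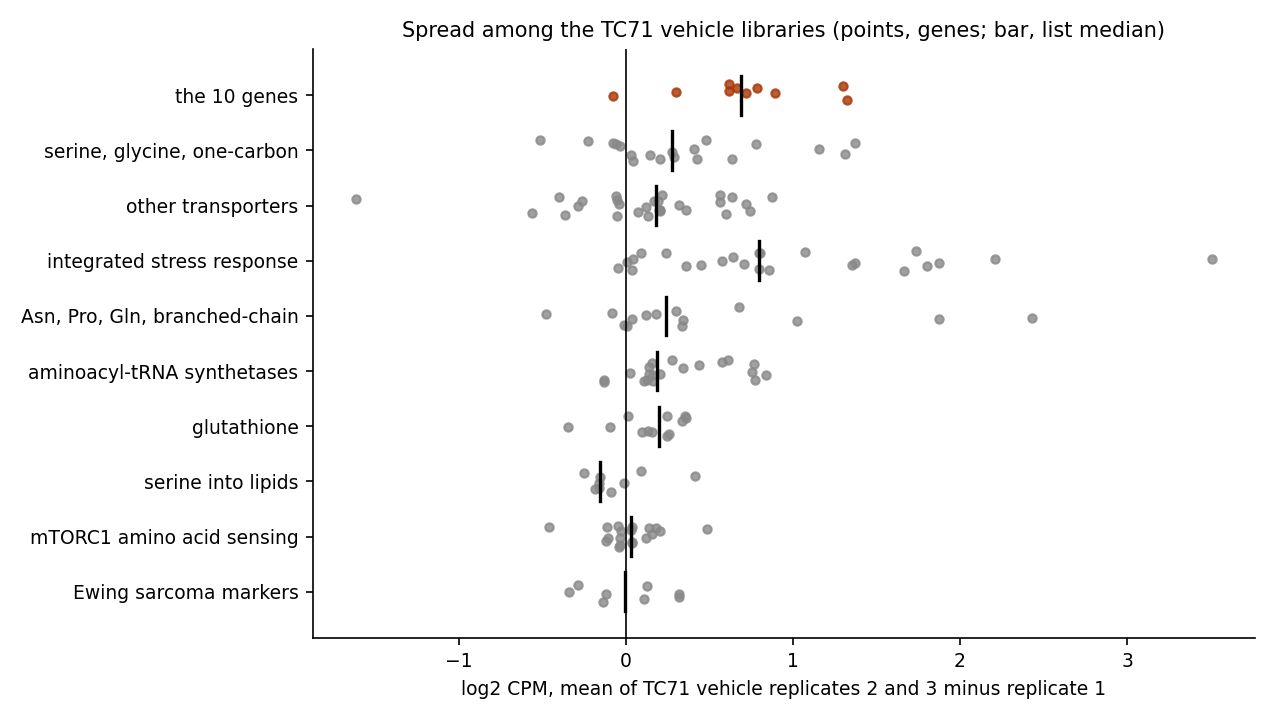
Difference in log2 CPM between the mean of TC71 vehicle replicates 2 and 3 and replicate 1, 1 point per tested gene, for the 10 genes and 9 gene lists, with the list median as a bar. The medians are 0.69 for the 10 genes, 0.80 for the integrated stress response and -0.01 for the Ewing sarcoma markers.

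Within the other groups the 10 genes were tight. The median range over the 3 libraries of a group was 0.12 on the log2 CPM scale in EW8 vehicle, 0.14 in EW8 doxycycline and 0.12 in TC71 doxycycline, below the medians over all tested genes of 0.28, 0.26 and 0.27. In TC71 vehicle it was 0.77, above the median over all genes of 0.38. PSAT1 and SLC7A11 alone among the 10 had a range over 1 there (1.42 and 1.31), where 21.1% of all tested genes, many of them low in counts, also exceeded 1. In TC71 doxycycline PSAT1 had a range of 0.01.

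Levels were compared between genes per kilobase of exon (CPM per kb, mean ± SD, n = 3). In EW8 vehicle the order ran from SLC38A2 at 99.4 ± 5.97 through PSAT1 at 84.5 ± 2.16 and SHMT2 at 71.4 ± 3.26 down to SLC1A4 at 9.81 ± 0.304 and SLC7A11 at 4.33 ± 0.513. SLC1A5 at 53.9 ± 4.01 and SLC7A5 at 51.9 ± 2.26 were neighbours that differed by less than their spread. With doxycycline PSAT1 passed from the second to the fourth place in EW8, at 53.1 ± 1.94, and SLC7A5 from the fifth to the second, at 69.0 ± 5.11. In TC71 vehicle PSAT1 had the highest mean, at 154 ± 68.2, before SLC7A5 at 108 ± 26.6. In replicate 1, however, PSAT1 was at 76.8, below SLC7A5 at 77.4. SLC1A5, SLC1A4 and PHGDH could not be ordered in TC71 vehicle, at 81.7 ± 21.4, 79.1 ± 9.35 and 78.7 ± 25.0. In TC71 doxycycline SLC38A2 led at 88.0 ± 4.42, and SLC7A5 at 82.4 ± 7.05 was within its spread of SLC38A2 and of PSAT1 at 81.4 ± 0.256, while the SLC38A2 and PSAT1 libraries did not overlap. SLC1A4 stood at 58.0 ± 1.16 and SLC7A11 at 8.60 ± 0.188. SLC7A11 was the lowest of the 10 in every group. The lengths used were those of all annotated exons together, 9217 bp for PHGDH and 2188 bp for PSAT1.

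**Figure D2:**
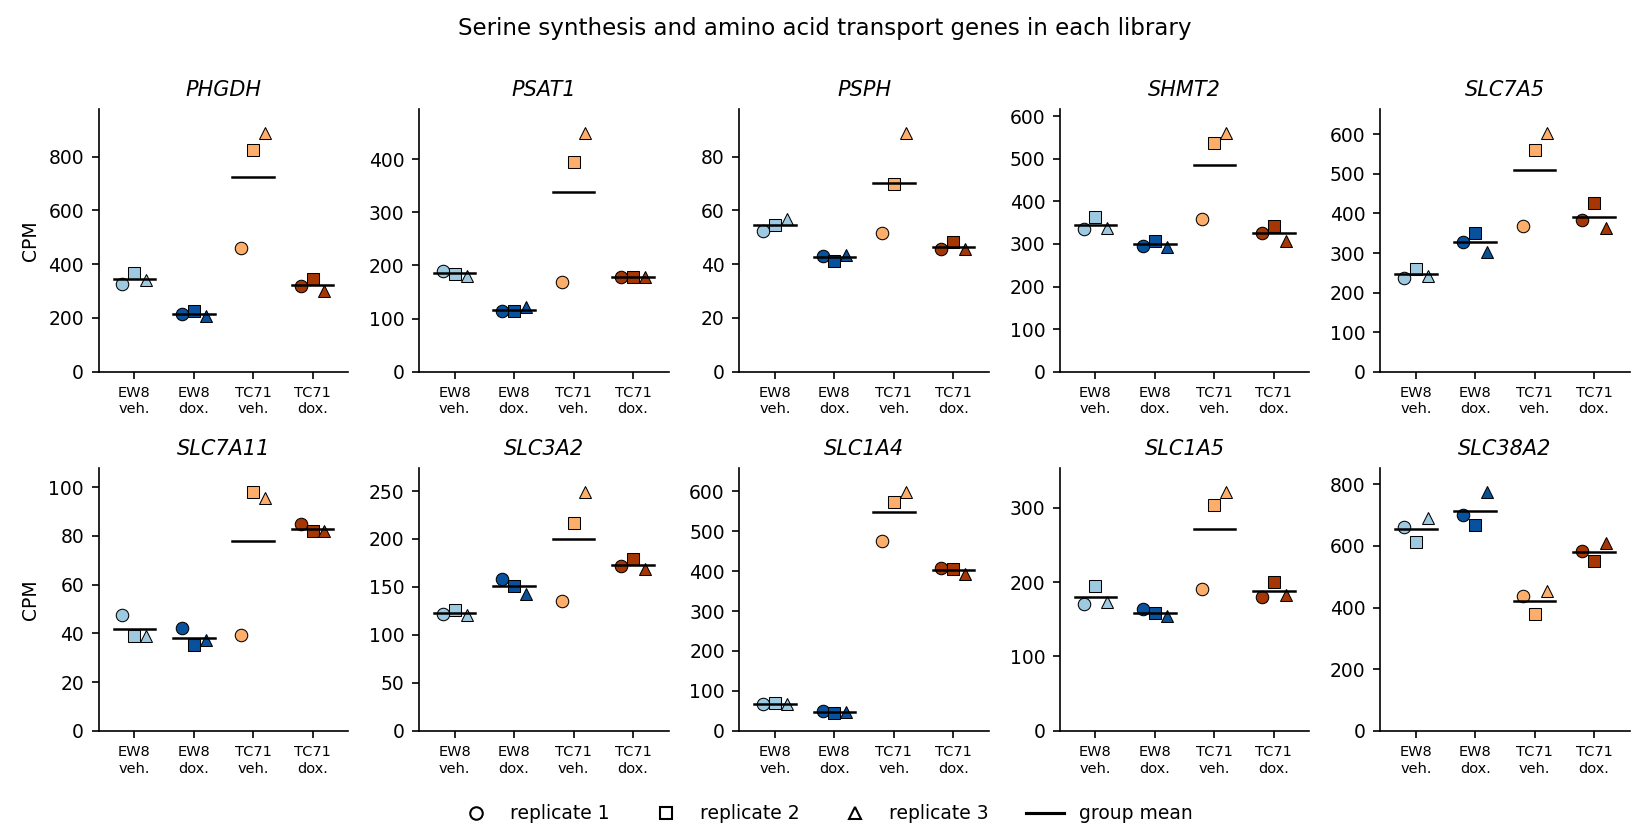
CPM of each of the 10 genes in each library of EW8 and TC71 under vehicle (veh.) and doxycycline (dox.), with replicates as symbols and the group mean as a line; every axis starts at 0. PHGDH, PSPH, SHMT2 and SLC1A4 were lower in all 3 doxycycline libraries than in all 3 vehicle libraries of both lines, and TC71 vehicle replicate 1 sits low in 9 of the 10 panels when set against replicates 2 and 3 of its group.

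The first comparison asked how the 10 genes responded to induction in EW8. The enzymes of serine synthesis and the exchanger SLC1A4 fell, and SLC7A5 rose. By edgeR's quasi-likelihood test, 4 of the 10 genes were lower and 1 was higher at an adjusted p under 0.05, against 22.0% and 21.9% of all tested genes, and none of the 10 changed by more than 1 on the log2 scale as well, a size at which 3.38% of all tested genes were called lower and 11.4% higher. The median log2 fold change of the 10 was -0.19, beside -0.03 over all tested genes. All 3 doxycycline libraries lay below all 3 vehicle libraries for 6 genes and above them for 2, against 29.1% and 26.9% of all tested genes.

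PHGDH (chr1:119648411-119744226, hg38), the first enzyme of the route, was at 325, 368 and 342 CPM under EW8 vehicle and at 214, 226 and 206 CPM under doxycycline. The groups did not overlap, and PHGDH fell by 0.68 on the log2 scale (SE 0.15, edgeR adjusted p = 0.00122). PSAT1 (chr9:78297143-78330093), the transaminase that follows, was at 190.1, 184 and 181 CPM and at 114, 113 and 121 CPM. It fell by 0.67 (SE 0.21, edgeR adjusted p = 0.0143), nearly the same amount as PHGDH. PSPH (chr7:56011051-56051604), the phosphatase of the last step, fell less, from 52.5, 54.5 and 56.8 CPM to 43.1, 41.1 and 43.3 CPM. Its log2 fold change was -0.36 (SE 0.13, edgeR adjusted p = 0.0265). SHMT2 (chr12:57229327-57234935) was at 335, 363 and 338 CPM and at 296, 308 and 293 CPM. Its groups also did not overlap, but the change of -0.21 (SE 0.11) did not pass the test in this fit (edgeR adjusted p = 0.142).

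Among the transporters of EW8, SLC1A4 (chr2:64988477-65023865) was at 66.2, 70.3 and 67.8 CPM under vehicle and at 48.5, 43.4 and 46.9 CPM under doxycycline. It fell by 0.56 (SE 0.07, edgeR adjusted p = 4.89e-06), with no overlap between the groups. SLC7A5 (chr16:87830023-87869488) went the other way, from 238, 258 and 242 CPM to 327, 352 and 303 CPM, and rose by 0.41 (SE 0.12, edgeR adjusted p = 0.0111). Its partner SLC3A2 (chr11:62856102-62888875) was at 121, 126 and 121 CPM and at 158, 151 and 142 CPM. All 3 doxycycline libraries were higher, yet the difference of 0.30 (SE 0.14) did not pass (edgeR adjusted p = 0.0894). SLC7A11 (chr4:138164097-138242349), SLC1A5 (chr19:46774883-46788594) and SLC38A2 (chr12:46358189-46372867) had differences of -0.13, -0.18 and 0.12 (SE 0.22, 0.13 and 0.07), none of which passed. The SLC7A11 groups overlapped at 47.5, 38.8 and 39.0 CPM against 42.2, 35.4 and 37.2 CPM.

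The spread behind these tests is shared by all 4 groups, so the unequal TC71 vehicle libraries widened the errors in EW8, where the SE of PHGDH was 0.15 with TC71 vehicle replicate 1 and 0.05 without it. Without TC71 vehicle replicate 1 the same EW8 libraries gave 5 genes lower and 3 higher: SHMT2 at -0.16 (SE 0.05), SLC3A2 at 0.34 (SE 0.05) and SLC38A2 at 0.17 (SE 0.06) then passed as well. The median of the 10 in that fit was -0.15, beside 0.01 over all tested genes. With EW8 fitted alone 6 were lower and 3 higher, the sixth being SLC1A5 at -0.13 (SE 0.05). Shares of all genes called with all libraries do not apply to these refits, so their counts cannot be read against all tested genes. The calls of PSAT1 and PSPH in EW8 held without any one TC71 vehicle library but not without some EW8 libraries. PSAT1, at -0.67 to -0.61 over the fits that leave out 1 library, did not pass without EW8 vehicle replicate 3 or any one EW8 doxycycline library, nor with DESeq2, and PSPH, at -0.39 to -0.29, did not pass without EW8 vehicle replicate 2 or 3 or any one EW8 doxycycline library, nor when at least 10 counts were required in every library. PHGDH, SLC1A4 and SLC7A5 passed in EW8 under all alternatives tried, and SLC7A11 under none.

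The same comparison was made in TC71. With all libraries 7 of the 10 genes were lower and 1 was higher at an adjusted p under 0.05, against 20.4% and 25.1% of all tested genes, and 1 of them, PHGDH, fell by more than 1 on the log2 scale, as 3.67% of all tested genes did (12.3% rose by more than 1). The median log2 fold change of the 10 was -0.49, beside 0 over all tested genes. All doxycycline libraries lay below all vehicle libraries for 4 genes and above them for 1, against 23.1% and 27.6% of all tested genes. Without vehicle replicate 1, 9 genes were lower and 1 higher, with a median of -0.74 beside -0.02 over all tested genes. The spread was estimated anew in that fit, so the shares above do not apply to its counts, which cannot be read against all tested genes. With replicate 1 as the only vehicle library the median of the 10 was 0.01, beside 0 over all tested genes.

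PHGDH was at 461, 825 and 889 CPM under TC71 vehicle and at 319.9, 346 and 300.2 CPM under doxycycline. Each vehicle library was above each doxycycline library, and the fall was 1.17 on the log2 scale (SE 0.15, edgeR adjusted p = 4.25e-06). Without vehicle replicate 1 it was -1.49 (SE 0.06) and against replicate 1 alone -0.54 (SE 0.07), past the test in both. PSAT1 was at 168, 394 and 449.7 CPM and at 178, 178 and 179 CPM, so that replicate 1 lay below all the doxycycline libraries. Its change was -0.92 (SE 0.21, edgeR adjusted p = 0.00132) with all libraries, -1.32 (SE 0.06) without replicate 1 and 0.06 (SE 0.07), which did not pass, against replicate 1 alone. The fall of PSAT1 in TC71 therefore rested on vehicle replicates 2 and 3. PSPH, at 51.4, 69.8 and 88.9 CPM and at 45.5, 48.3 and 45.7 CPM, changed by -0.59 (SE 0.13, edgeR adjusted p = 0.000768), and by -0.85 (SE 0.08) without replicate 1. SHMT2, at 358, 537 and 561 CPM and at 326, 342 and 306 CPM, changed by -0.58 (SE 0.11, edgeR adjusted p = 0.000267), and by -0.84 (SE 0.05) without replicate 1. Both kept their vehicle and doxycycline libraries apart, but against replicate 1 alone their differences, -0.16 (SE 0.09) and -0.16 (SE 0.07), did not pass.

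SLC1A4 stood at 476, 572 and 599 CPM under TC71 vehicle and at 408, 405 and 393 CPM under doxycycline. It fell by 0.45 (SE 0.07, edgeR adjusted p = 3.3e-05), by 0.62 (SE 0.05) without replicate 1 and by 0.26 (SE 0.07) against replicate 1 alone, and passed each time. SLC1A5, at 190.3, 304 and 322 CPM and at 179.7, 201 and 182 CPM, overlapped through replicate 1. Its change of -0.54 (SE 0.13, edgeR adjusted p = 0.00189) became -0.82 (SE 0.06) without that library and -0.04 (SE 0.08) against it alone, the last short of the test. SLC38A2 was the single gene that rose, from 436, 378 and 453 CPM to 583, 551 and 609 CPM. Its log2 fold change was 0.46 (SE 0.07, edgeR adjusted p = 3.03e-05), with 0.40 (SE 0.07) without replicate 1 and 0.39 (SE 0.07) against it alone, so that this rise did not depend on which vehicle libraries were used.

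The sign of the TC71 difference turned with the vehicle libraries used for SLC3A2 and for both of its partners. SLC7A5 was at 367, 561 and 604 CPM under TC71 vehicle and at 383, 428 and 362 CPM under doxycycline. It changed by -0.39 (SE 0.12, edgeR adjusted p = 0.015), by -0.66 (SE 0.06) without replicate 1 and by 0.07 (SE 0.08) against it alone, and with TC71 fitted alone the change of -0.38 (SE 0.15) did not pass (edgeR adjusted p = 0.0508, in a range of 2.13e-10 to 0.563 over the alternatives). It also fell short without TC71 vehicle replicate 2 or 3 or TC71 doxycycline replicate 1 or 3, at -0.66 to -0.30 over the fits that leave out 1 library. SLC3A2, at 135, 217 and 249 CPM and at 171, 179 and 168 CPM, had a difference of -0.21 (SE 0.14, edgeR adjusted p = 0.224) that did not pass. It fell by 0.51 (SE 0.06) without replicate 1 and rose by 0.34 (SE 0.07) against it alone. SLC7A11, at 39.4, 98.2 and 95.7 CPM and at 85.0, 81.9 and 81.9 CPM, had a difference of 0.09 (SE 0.21, edgeR adjusted p = 0.772). It fell by 0.31 (SE 0.08) without replicate 1 and rose by 1.05 (SE 0.12) against it alone, so that no direction can be given for SLC7A11 in TC71.

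**Figure D3:**
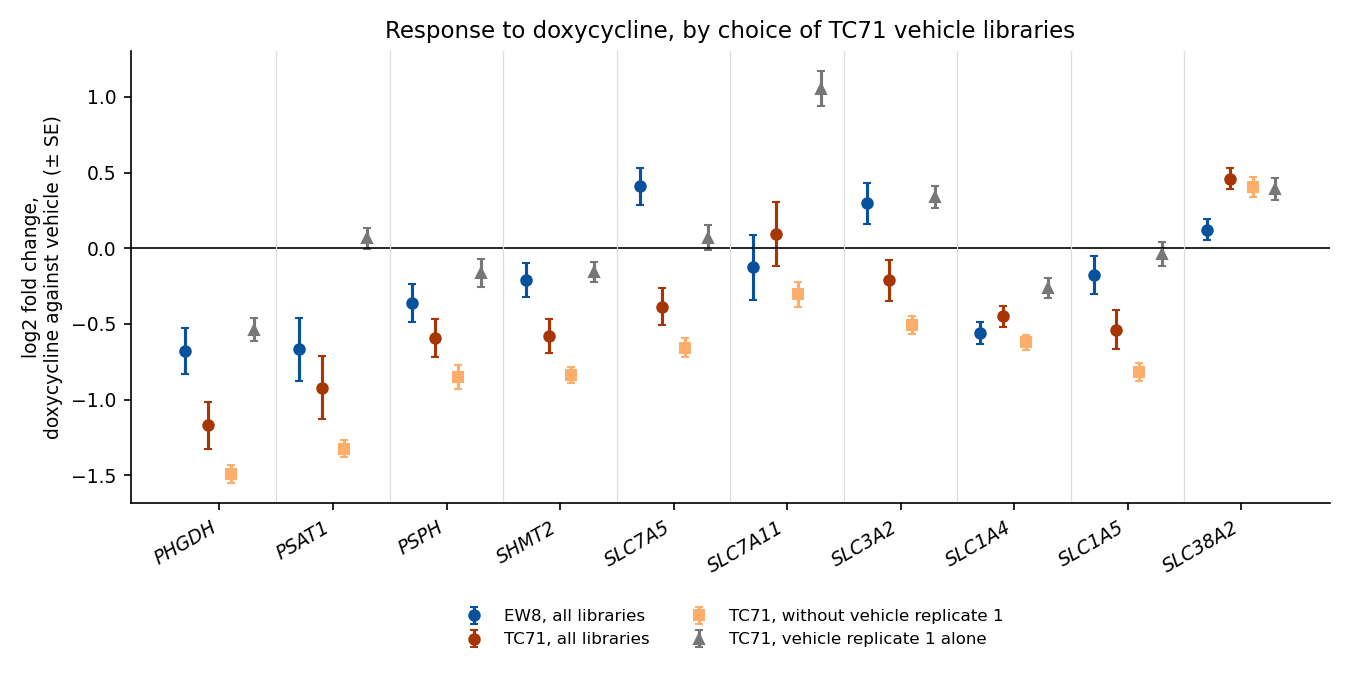
Log2 fold change, doxycycline against vehicle, with its SE as the error bar, for the 10 genes in EW8 and, for TC71, with all libraries, without vehicle replicate 1 and with vehicle replicate 1 alone. The TC71 points of SLC38A2 lie between 0.39 and 0.46, whereas those of SLC7A11 lie between -0.31 and 1.05.

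Whether the lines responded differently was tested as an interaction over the same libraries. SLC7A5 differed, with a TC71 response 0.80 lower than that of EW8 on the log2 scale (SE 0.17, edgeR adjusted p = 0.00296), as did SLC38A2, 0.34 higher in TC71 (SE 0.10, edgeR adjusted p = 0.0237). These were 1 gene lower and 1 higher of 10, against 7.07% and 12.2% of all tested genes, and none of the 10 differed by more than 1 as well, as 2.87% of all tested genes did in the lower and 4.18% in the higher direction. The difference for SLC7A5 was -1.11 (SE 0.08) without TC71 vehicle replicate 1 and -0.38 (SE 0.10) with it alone, and passed in both, under all alternatives tried. That for SLC38A2, at 0.24 (SE 0.09) and 0.23 (SE 0.09), passed in neither, and over the fits that leave out 1 library it ran from 0.19 to 0.38 and fell short in 9 of 12 (only without EW8 vehicle replicate 2, TC71 vehicle replicate 3 or TC71 doxycycline replicate 2 did it pass). The responses of PHGDH, SHMT2, SLC3A2 and SLC1A5 were 0.49, 0.37, 0.51 and 0.36 lower in TC71 and did not pass with all libraries (edgeR adjusted p = 0.127, 0.112, 0.0743 and 0.187). Without replicate 1, 7 genes passed with a lower response in TC71, namely these 4, PSAT1, PSPH and SLC7A5, and none with a higher one. In that fit the median difference over all tested genes was -0.06. The shares above, from the fit with all libraries, do not apply to it, so its counts cannot be read against all tested genes. The SLC1A4 difference was 0.11 (SE 0.10) with all libraries and -0.11 (SE 0.07) without replicate 1, short of the test in both, and 0.26 (SE 0.08) with it alone, where it passed.

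Under vehicle, TC71 had more RNA than EW8 from 9 of the 10 genes and less from SLC38A2, all past the test, against 28.2% and 33.5% of all tested genes called higher and lower. The difference was by far the largest for SLC1A4, at 476 to 599 CPM in TC71 and 66.2 to 70.3 CPM in EW8, a log2 difference of 3.01 (SE 0.08, edgeR adjusted p = 4.64e-16). It was 3.21 (SE 0.05) without TC71 vehicle replicate 1 and 2.79 (SE 0.06) with it alone. SLC1A4, PHGDH (1.07, SE 0.15) and SLC7A5 (1.05, SE 0.12) differed by more than 1, as did 11.6% of all tested genes in the higher direction, and these 3 with SLC38A2 (-0.64, SE 0.07) passed under all alternatives tried. PSPH, at 0.36 (SE 0.12), did not pass without EW8 vehicle replicate 1 or TC71 vehicle replicate 3, over a range of 0.18 to 0.65 when 1 library was left out. Set against EW8 vehicle, TC71 vehicle replicate 1 alone gave differences that did not pass for PSAT1, PSPH, SHMT2, SLC7A11, SLC3A2 and SLC1A5, between -0.15 and 0.13, whereas without it the same 6 genes differed by 0.65 to 1.33 and passed. That library thus stood near EW8 for these genes and near the other TC71 libraries for SLC1A4 and SLC38A2.

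Under doxycycline 5 of the 10 genes differed between the lines. SLC1A4 was higher in TC71 by 3.12 (SE 0.08), SLC7A11 by 1.12 (SE 0.22), PSAT1 by 0.62 (SE 0.21) and PHGDH by 0.58 (SE 0.15), and SLC38A2 was lower by 0.30 on the log2 scale (SE 0.07). These 4 genes higher and 1 lower compare with 30.2% and 32.3% of all tested genes, and 2 of the 4 differed by more than 1, where 12.6% of all tested genes did so in that direction and 18.4% in the other. The SLC7A11 libraries did not overlap, at 81.9 to 85.0 CPM in TC71 and 35.4 to 42.2 CPM in EW8. The other 5 genes had differences between 0.12 and 0.26 that did not pass in this fit. SLC7A5, SLC3A2 and SLC1A5 passed once TC71 vehicle replicate 1 was left out, at 0.24, 0.18 and 0.22, with SE of 0.06, 0.05 and 0.05 in place of 0.12, 0.14 and 0.13. The PSAT1 difference, at 0.56 to 0.62 over the fits that leave out 1 library, did not pass without any one of the EW8 doxycycline libraries or with DESeq2.

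ATF4 and MYC, regulators of several of these genes, were measured in the same libraries. In EW8, ATF4 was at 446, 454 and 447 CPM under vehicle and 419, 423 and 395 CPM under doxycycline, a difference of -0.12 (SE 0.14) that did not pass. In TC71 it changed from 457, 719 and 883 CPM to 499, 520.1 and 490.2 CPM, by -0.45 (SE 0.14, edgeR adjusted p = 0.0134), by -0.75 (SE 0.06) without replicate 1 and by 0.12 (SE 0.06), short of the test, against it alone. The TC71 change of ATF4 also fell short without vehicle replicate 3 and with TC71 fitted alone. ATF4 was lowest in TC71 vehicle replicate 1 and highest in replicate 3. PHGDH, PSAT1, PSPH, SHMT2, SLC7A5, SLC3A2, SLC1A4, SLC1A5 and MYC had the same order of libraries, whereas SLC7A11 and SLC38A2 did not. This order was therefore not particular to ATF4, and a link between these genes was not tested. MYC was at 197, 216 and 207 CPM and 186, 199.6 and 176 CPM in EW8, a difference of -0.14 (SE 0.08) that did not pass. In TC71 it fell from 481, 555 and 641 CPM to 365, 394 and 348 CPM, by 0.60 (SE 0.08, edgeR adjusted p = 7.6e-06), and the interaction of -0.46 (SE 0.12) passed. Under vehicle TC71 exceeded EW8 by 0.61 (SE 0.14) for ATF4 and 1.43 (SE 0.08) for MYC, and under doxycycline by 0.29 (SE 0.14), which did not pass, and 0.98 (SE 0.08). The vehicle difference of ATF4 rested on TC71 replicates 2 and 3, since replicate 1, at 457 CPM, stood near the EW8 vehicle libraries, at 446 to 454 CPM.

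The genes whose log2 CPM was most like that of 3 of the 10 over the 12 libraries are given as a description, since the libraries share their groups and line. For PHGDH they were NAXE (Pearson r = 0.988), RPL10A (0.986) and CCDC8 (0.985), for SLC7A11 ZNF496 (0.970), AK3 (0.959) and SLC38A1 (0.955), and for SLC7A5 FAM107B (0.965), LONP1 (0.962) and its own partner SLC3A2 (0.957).

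Genes next to the 10 in metabolism were taken from written lists. With all libraries, 21.9% of all tested genes were called higher and 22.0% lower in EW8, and 25.1% and 20.4% in TC71. List counts near these shares are not particular to the list. The shares do not apply to list counts from fits with other vehicle libraries, where the spread was estimated anew. The medians over all tested genes were -0.03 and 0. Serine and glycine metabolism and the folate cycle moved mostly down: of 19 measured genes other than the 10, 11 fell and 4 rose in EW8 and 11 fell and 1 rose in TC71, with medians of -0.42 and -0.48 on the log2 scale. The falls were 14 without TC71 vehicle replicate 1 and 10 with it alone. TYMS, which makes thymidylate with a one-carbon unit, fell from 68.8, 69.4 and 69.5 CPM to 49.6, 44.8 and 48.0 CPM in EW8 and from 71.9, 70.6 and 66.0 CPM to at most 33.6 CPM in TC71. Its log2 fold changes were -0.54 (SE 0.07) and -1.12 (SE 0.07). GCSH, a subunit of the glycine cleavage system, fell by 1.07 (SE 0.10) and 0.56 (SE 0.10). SFXN3, a relative of the mitochondrial serine carrier SFXN1, went against the list, from 7.02 to 9.47 CPM up to 52.4 to 57.0 CPM in EW8 and from 6.43 to 9.34 CPM up to 88.5 to 98.3 CPM in TC71. It rose by 2.76 (SE 0.12) and 3.54 (SE 0.13). MTHFD2L, a mitochondrial folate enzyme, rose in EW8 by 1.84 (SE 0.17) and had a difference of -0.37 (SE 0.16) in TC71 that did not pass, and of -0.71 (SE 0.18), which passed, against vehicle replicate 1 alone.

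Other amino acid transporters divided in both directions. Of 28 measured, 9 rose and 8 fell in EW8 and 9 rose and 11 fell in TC71, with medians of -0.05 and -0.06. Of all tested genes, 21.9% rose and 22.0% fell in EW8, and 25.1% rose and 20.4% fell in TC71. SLC1A1, a glutamate and cysteine transporter, rose by 1.963 (SE 0.11) in EW8 and 0.92 (SE 0.11) in TC71, and SLC6A6, the taurine transporter, by 0.28 (SE 0.06) and 1.03 (SE 0.06). SLC38A3, a glutamine transporter, fell by 1.98 (SE 0.44) and 2.55 (SE 0.48) from low levels of at most 1.85 CPM. SLC7A10, which carries small neutral amino acids including serine, fell by 1.46 (SE 0.23) and 2.06 (SE 0.37).

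The integrated stress response list, which contains ATF4, had 7 of 24 measured genes higher and 3 lower in EW8. The shares of all tested genes were 21.9% higher and 22.0% lower in EW8, and 25.1% and 20.4% in TC71 with all libraries. In TC71, 4 were higher and 5 lower with all libraries, and 3 and 12 without vehicle replicate 1, a refit to which these shares do not apply. The list median in TC71 was -0.004 with all libraries, -0.28 without replicate 1 and 0.40 with it alone. The medians over all tested genes in these fits were 0, -0.02 and 0. The direction of the list median in TC71 thus turned with the vehicle library. PPP1R15A (GADD34), a phosphatase subunit that reverses the stress signal, rose in each case, by 2.79 (SE 0.10) in EW8 and 2.36 (SE 0.10) in TC71. JDP2, itself an AP-1 family gene, rose by 2.28 (SE 0.35) in EW8 and had a difference of 0.42 (SE 0.31) in TC71, where its vehicle libraries were at 3.65, 11.7 and 14.1 CPM. Without vehicle replicate 1 that difference was -0.06 (SE 0.16), and against it alone 1.82 (SE 0.25), which passed. DDIT4, an inhibitor of mTORC1, was at 6.76, 16.8 and 58.8 CPM in TC71 vehicle and 5.21, 7.96 and 6.01 CPM in TC71 doxycycline, a fall of 2.10 on the log2 scale (SE 0.48) that was -0.10 (SE 0.24), short of the test, against replicate 1 alone. In EW8 its difference of 0.54 (SE 0.49) did not pass. Among 7 regulators, 1 rose and 2 fell in EW8 and 4 fell in TC71, where 3 rose and 3 fell against replicate 1 alone. ATF3, an AP-1 relative induced by stress, rose in EW8 by 1.26 (SE 0.36) and had a difference of 0.51 (SE 0.35) in TC71, of 0.01 (SE 0.19) without replicate 1 and of 2.08 (SE 0.18), which passed, against it alone.

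The other lists were mixed or moved by small amounts. Their counts stand beside 21.9% higher and 22.0% lower of all tested genes in EW8, and 25.1% and 20.4% in TC71, with all libraries. Of 14 genes for asparagine, proline, glutamine and branched-chain amino acids, 3 rose and 6 fell in EW8 and 4 rose and 7 fell in TC71 (5 and 3 against vehicle replicate 1 alone). BCAT2, which transaminates branched-chain amino acids, fell by 1.25 (SE 0.11) and 0.54 (SE 0.11). ASNS, asparagine synthetase and a well-known ATF4 target, had low counts, at 0.467 to 1.34 CPM in EW8 and at 1.30, 3.87 and 6.11 CPM in TC71 vehicle. Reads on more than 1 gene were left out, and overlap of ASNS with other genes was not examined, so these counts may understate its RNA. Its fall of 1.17 (SE 0.43) in TC71 became a difference of 0.34 (SE 0.50) against vehicle replicate 1 alone. The fall did not pass when any other single TC71 library was left out. Of 20 cytosolic aminoacyl-tRNA synthetases, 3 rose and 8 fell in EW8 and 1 rose and 10 fell in TC71, none by more than 1. Without TC71 vehicle replicate 1 these counts were 8 and 9 in EW8 and 1 and 14 in TC71, and with it alone 6 rose and 6 fell in TC71. FARSB, a subunit of phenylalanyl-tRNA synthetase, had the largest mean change of the list, -0.55 (SE 0.06) and -0.34 (SE 0.06).

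Glutathione genes, for which SLC7A11 supplies cysteine, rose in 6 of 12 and fell in 1 in EW8 and rose in 5 and fell in 1 in TC71. For this and the next lists, the shares of all tested genes were 21.9% higher and 22.0% lower in EW8. In TC71 they were 25.1% and 20.4% with all libraries. In TC71 4 rose and 4 fell without vehicle replicate 1. GGT1, which cleaves extracellular glutathione, was at no more than 6 counts (3 read pairs, the level treated as a floor) in each EW8 vehicle library and was at least 4.89-fold higher in EW8 doxycycline, at 0.388 to 0.830 CPM. In TC71 it rose by 1.75 (SE 0.42). GLRX, a glutaredoxin, fell in TC71 by 1.22 (SE 0.11) and had a difference of 0.17 (SE 0.11) in EW8. Of 9 genes that put serine into lipids or neighbour that use, 4 rose and 1 fell in EW8 and 6 rose in TC71. SERINC2 rose by 1.61 (SE 0.18) and 2.90 (SE 0.21), and SPTLC2, a subunit of the enzyme that joins serine to palmitoyl-CoA, by 0.75 (SE 0.09) and 1.36 (SE 0.09). Of 19 genes of amino acid sensing by mTORC1, 7 rose and 4 fell in EW8 and 6 rose and 4 fell in TC71 (2 and 5 without vehicle replicate 1), and the sestrins SESN1 and SESN3 fell in both lines, by 0.55 (SE 0.16) and 0.89 (SE 0.15) in EW8 and more than 1 in TC71. The EW8 change of SESN1 did not pass without EW8 doxycycline replicate 1 or 2. The 3 RNA quality genes, mitochondrially encoded, did not pass in either line, with MT-ND4 at -0.04 (SE 0.24) and -0.27 (SE 0.24), but in TC71 MT-ND4 differed by 0.27 (SE 0.07) without vehicle replicate 1 and by -1.05 (SE 0.08) against it alone and passed in both. Of the 8 Ewing sarcoma markers 6 fell and 1 rose in EW8 and 5 fell and 2 rose in TC71. PAX7 changed by -1.25 (SE 0.07) and -1.27 (SE 0.07) and LIPI by -1.40 (SE 0.11) and -0.65 (SE 0.11). CD99 went the other way, from 793 to 825 CPM under EW8 vehicle up to 1230 to 1256 CPM under doxycycline. In TC71 it went from 480 to 614 CPM up to 744 to 775 CPM. NR0B1 was also higher in TC71 doxycycline, at 143 to 157 CPM against 99.4 to 129 CPM under vehicle.

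**Figure D4:**
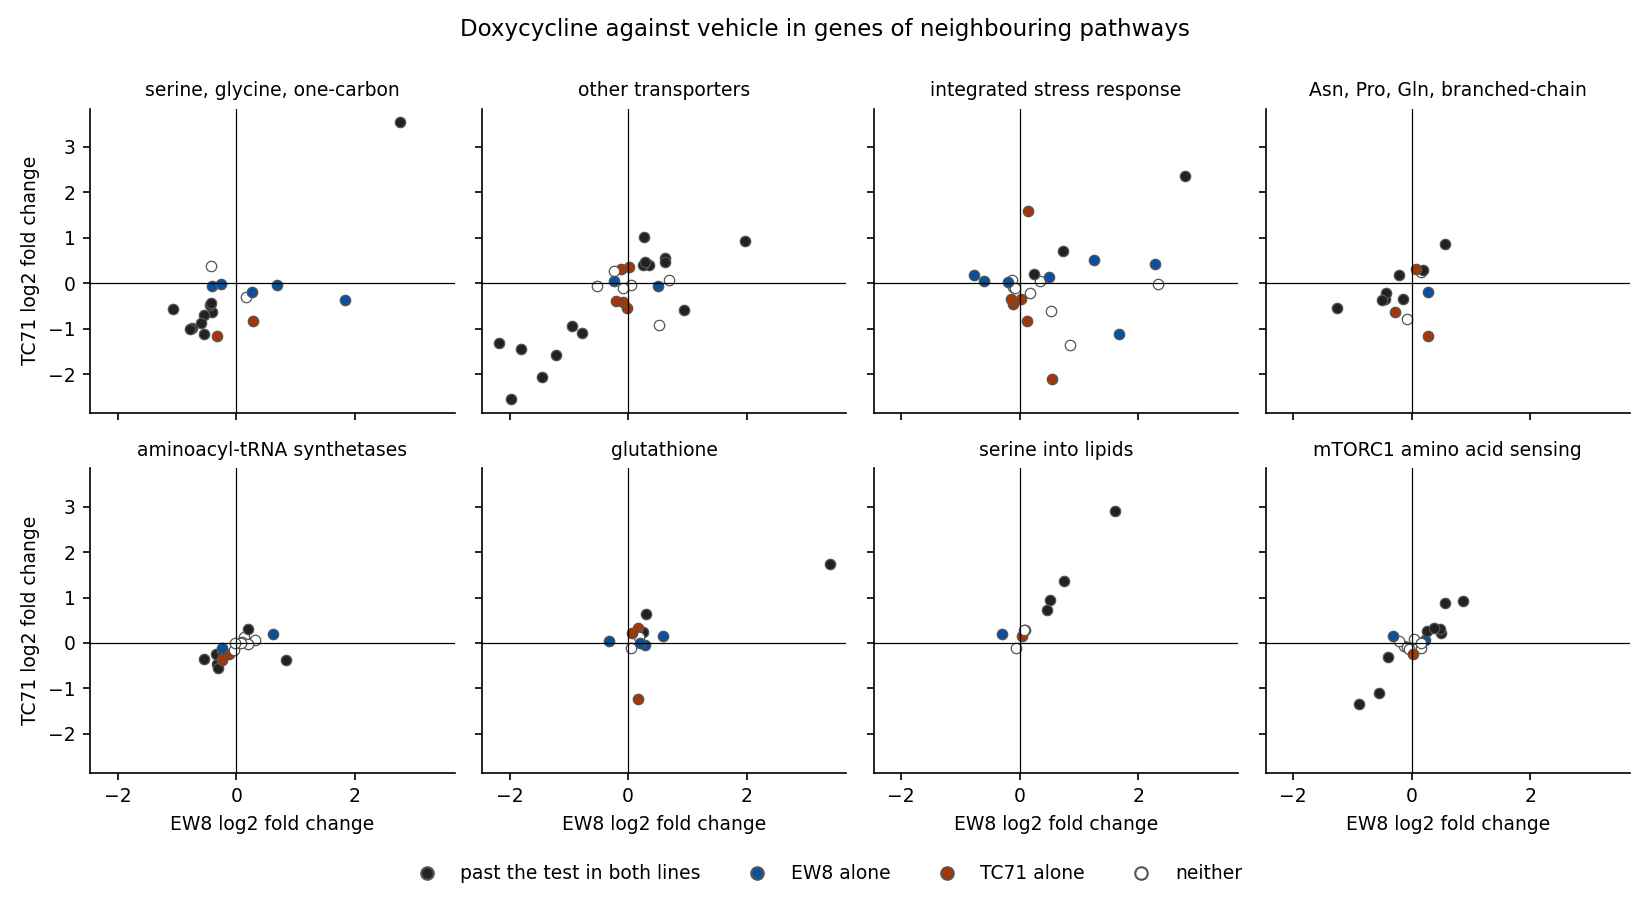
Log2 fold change, doxycycline against vehicle, in EW8 (horizontal) and TC71 (vertical), 1 point per tested gene of 8 lists (the 10 genes are not drawn), coloured by the line or lines in which it passed the test; the lines share no libraries. SFXN3 stands alone at 2.76 and 3.54 in the first panel, and GGT1, which was at the floor in EW8 vehicle, is drawn at its fitted value of 3.40.

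Counting could touch some of these genes, since strand was not used and reads on more than 1 gene were left out. Exons of SLC1A5 share 780 of 3332 bp with ENSG00000275719 on the opposite strand, those of SLC7A11 share 865 of 9645 bp with SLC7A11-AS1, those of SHMT2 share 427 of 4838 bp with ENSG00000276727, and those of SLC7A5 share 271 of 4745 bp with ENSG00000260466, and none of these partners had more than 27 counts in any library. PSPHP1, a pseudogene of PSPH counted separately, had 91 to 194 counts in TC71 and at most 3 in EW8.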

How the data were processed

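Per the labels and the study's methods, reads were checked with FastQC, aligned to hg38 (GRCh38) with STAR and assigned to GENCODE release 29 exons with featureCounts 2.0.1, and the deposited table holds raw read counts per gene. Its header names no options for read pairs, strand, multi-mapped or overlapping reads, so mates were counted separately, strand was not used, and reads on several genes or places were left out. The floor covers counting error only, whereas each SE also includes the estimated spread between libraries.

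All 12 libraries in 4 groups entered 1 fit with edgeR 4.0.16 (R 4.3.3): TMM scaling, filterByExpr, the quasi-likelihood test and Benjamini-Hochberg adjustment over 21013 genes. A gene passed at an adjusted p under 0.05. The SE was the log2 fold change divided by the square root of the F statistic. DESeq2 1.42.0, other scalings and filters, a replicate block, each line alone and leaving out each library were tried. The script was tested on simulated counts. The 10 genes, the lists and the rule for named genes (per list, up to 4 with the largest changes past the test and a fold limit of 1 on the log2 scale, or the 1 with the largest mean) were chosen with earlier results of these data known. The study's knockdown experiments were not analysed here.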

Additional observations from a re-analysis of the deposited data

Results flagged for a closer look

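The response to doxycycline differed between the lines, by the interaction test of edgeR at an adjusted p under 0.05, for the genes given here, each value being the TC71 response minus the EW8 response on the log2 scale with all libraries. Of the 10 genes of serine synthesis and transport these were SLC7A5 (-0.80) and SLC38A2 (0.34). Among serine, glycine and folate genes SFXN3 (0.78) and GCSH (0.51) were higher in TC71, and MTHFD2L (-2.21) and TYMS (-0.57) lower. Without TC71 vehicle replicate 1 the GCSH difference was 0.37 and did not pass. Among transporters the difference was -1.04 for SLC1A1 and 0.75 for SLC6A6. Stress genes differed by -0.44 (PPP1R15A), -1.86 (JDP2) and -2.64 (DDIT4), and with TC71 vehicle replicate 1 as the only vehicle library JDP2 and DDIT4 did not pass, at -0.50 and -0.68. BCAT2 differed by 0.71, GLRX by -1.39, SERINC2 by 1.29 and SPTLC2 by 0.61. The Ewing sarcoma marker LIPI differed by 0.75. EPCAM differed by 3.28 and PECAM1 by a fitted 8.08, which is no bound because PECAM1 was at 0 in all TC71 vehicle libraries. For the induced genes the difference was 0.73 for JUN and 2.21 for FOS, and for MYC it was -0.46.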

How the results depend on the processing

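Of 970 values of the 10 genes under the alternatives, 868 kept their direction and their side of the threshold, 40 lost the call, 47 gained it and 15 turned; of 1644 values of other named genes the numbers were 1582, 23, 25 and 14. For the counts of the 10 genes called, EW8 gave 2 higher with no filter on low counts and 3 with at least 10 counts in every library, with each line fitted alone and with TC71 vehicle replicate 1 as the only vehicle library (an alternative chosen after seeing the data). Leaving out 1 library gave 2 to 5 lower and 1 to 3 higher in EW8. In TC71, library size alone put 2 genes past the fold limit, as 1 to 2 did over the fits without 1 library, and replicate 1 alone gave 2 lower and 3 higher. For the difference of the responses, 2 genes were lower with library size alone, 6 with no filter and 3 with at least 10 counts in every library; 0 were higher with median-ratio size factors and with at least 10 counts, 3 were higher and 1 passed the fold limit with replicate 1 alone, and leaving out 1 library gave 1 to 7 lower, 0 to 1 higher and 0 to 1 past the fold limit. Between the lines under vehicle, replicate 1 alone left 3 higher and 1 past the fold limit, and leaving out 1 library put 1 to 6 past it. Under doxycycline 7 were higher with no filter and with replicate 1 alone, and 3 to 7 when 1 library was left out. The summed level of the 10 genes, 456 CPM per kb in EW8 vehicle, 418 in EW8 doxycycline and 527 in TC71 doxycycline, was 470.3, 414 and 504 with library size alone, and 420.6 in EW8 doxycycline with median-ratio size factors.

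With TC71 vehicle replicate 1 as the only vehicle library, the values that turned were 0.065, 0.070, 0.34, 0.34 and 0.12 for PSAT1, SLC7A5, SLC3A2, ASNS and ATF4 in the TC71 response; 0.10, 0.69, 0.16, 0.0096, 0.095 and 0.20 for PHGDH, PSAT1, PSPH, SHMT2, SLC1A5 and ATF4 in the difference of the responses; and -0.15, -0.097 and -0.093 for PSAT1, PSPH and SLC7A11 between the lines under vehicle. Leaving out 1 library gave -0.31 to 0.29 for SLC7A11 in TC71, -0.23 to 0.42 for the difference of its responses, -0.11 to 0.14 for that of SLC1A4, -0.0052 to 0.60 for ASNS in EW8, -0.056 to 0.71 for JDP2 in TC71, and -0.11 to 0.020 and -0.53 to 0.27 for MT-ND4 in EW8 and TC71. MT-ND4 in EW8 was at 0.022 with at least 10 counts in every library and 0.0047 with each line fitted alone. The cause was not tested.

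Samples with the same replicate number did not deviate together (correlations of -0.03 to 0.01), so the numbers do not pair the libraries; with the replicate number as a block the difference of the SLC7A5 responses was -0.77 (edgeR adjusted p = 0.00353), and no call of the 10 genes changed. The lowest count of the 10 genes in a library was 1628, and 3 libraries a group limit the precision.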
